A study of Mus musculus with 8 samples.

Results

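The transcripts of 8 haemostasis and platelet genes were followed in microvessels of the mouse forebrain between birth and adulthood. The genes were Vwf, Thbd, Procr, Tfpi, F3, Anxa2, Ppbp and Itga2b, chosen by name, and every probe whose accession maps to one of them was included. They were covered by 11 of the 39429 probes on the array, and all 8 were among the 21939 genes tested. Vessels were isolated from whole forebrain by homogenisation, sedimentation and filtration, and particles under 70 µm were kept. The 3 groups were P5, P10 and adult mice, that is pups of 5 days, pups of 10 days and adults, whose age the labels do not give as a number. The labels name no strain, sex, transgene or treatment for any group, and no number of animals per preparation. Each of 8 two-colour arrays compared the RNA of 2 ages directly, and the 4 arrays of a slide formed 1 of 2 replicates.

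Haemostasis at the vessel wall balances clotting against its inhibition. Endothelial cells store von Willebrand factor in Weibel-Palade bodies and release it to capture platelets. They also carry thrombomodulin and the endothelial protein C receptor, which together turn thrombin into an activator of protein C, and they make tissue factor pathway inhibitor, which blocks the start of coagulation by tissue factor. In brain, tissue factor is made largely by astrocytes around the vessels, and brain endothelium is known for low thrombomodulin relative to other vascular beds. Platelet basic protein and integrin alpha-IIb are products of megakaryocytes and platelets. Whether their signal here follows platelet RNA retained in the vessels was not tested.

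Each value below is a level, the log2 of a probe's normalised intensity for 1 age and replicate, or a log2 difference between ages with the older age on top, so a positive difference means more signal in the older vessels. Differences were tested with limma across all 21939 genes, with Benjamini-Hochberg adjusted p below 0.05 as the threshold, and are given with their standard error. The comparisons share samples, so they are not independent of each other. P5 RNA carried Cy5 on every array that held it. In the differences, the dye effect on P5 was taken from the P10 and adult arrays run in both dye orders. Levels hold no dye term, so the place of P5 among them may partly reflect dye. Overlap of levels between ages describes 2 samples per age, and the share of all genes without overlap was not counted. The labels do not say that the replicates came from separate animals or litters, so the spread behind the p-values may be technical. Levels of different probes are not set against each other as amounts of RNA. A summed intensity of a list adds linear intensities, so it follows the brightest probes and says little of the others. Because the samples are bulk RNA, fewer cells of a type and less RNA per cell cannot be told apart.

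Endothelial markers were read in all groups, but the series holds no non-vessel sample, so enrichment of vessels could not be checked. All 14 pan-endothelial markers were well above background in every channel, and all 14 rose in adult against P5 vessels (median 1.63, from 0.63 to 4.20), led by Ly6c1 at 4.20 and Flt1 at 3.86. Their summed intensity was 139455 and 113184 at P5, 279921 and 259152 at P10, and 644612 and 551079 in adult vessels. All 7 pericyte and smooth muscle markers tested rose in the same comparison (median 1.60). All 9 erythroid markers tested fell in adult against P5 vessels (median -4.80), with a summed intensity of 1819980 and 1506563 at P5, 356292 and 461335 at P10, and 108711 and 82345 in adult vessels. All 6 immature neuron markers also fell (median -2.58). Between P10 and P5 all 14 pan-endothelial and all 7 pericyte and smooth muscle markers rose, whereas between adult and P10 vessels 5 of the 14 and 2 of the 7 did and 0 of either list fell (medians 0.46 and 0.37). The part of these other cell types in the results for the 8 genes was not tested.

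In adult against P5 vessels, 6 of the 8 genes rose (Vwf, Thbd, F3, Anxa2, Ppbp and Itga2b) and 0 fell, where 53.1% of all genes tested were called, 23% upward and 30.1% downward. In P10 against P5 vessels, 6 rose (Vwf, Thbd, Procr, Tfpi, Anxa2 and Ppbp) and 0 fell. The background there was 41.2% called, 18.2% upward and 23% downward. In both counts against P5, Ppbp had 1 of 4 P5 channels well above background, so a fall of this gene could hardly have been seen. In adult against P10 vessels the genes split: Thbd, F3 and Ppbp rose and Procr and Tfpi fell. There 17.5% of all genes were called, 9.1% upward and 8.42% downward. These shares in the 3 comparisons are also the background for the counts of every other list. The median log2 difference of the 8 genes was 0.99, 0.91 and 0.13 in these 3 comparisons, and that of all genes tested was -0.09, -0.06 and -0.01. The calls depended on how local background was modelled: with 11 spots of faulty recorded background kept in the background fit, 4, 0 and 1 of the 8 genes were called in the same 3 comparisons (Thbd, F3, Anxa2 and Ppbp in the first and Thbd in the last). Under that setting 5378, 0 and 257 of all 21939 genes were called, so calls were lost across the whole array and not among the 8 genes alone.

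**Figure D1:**
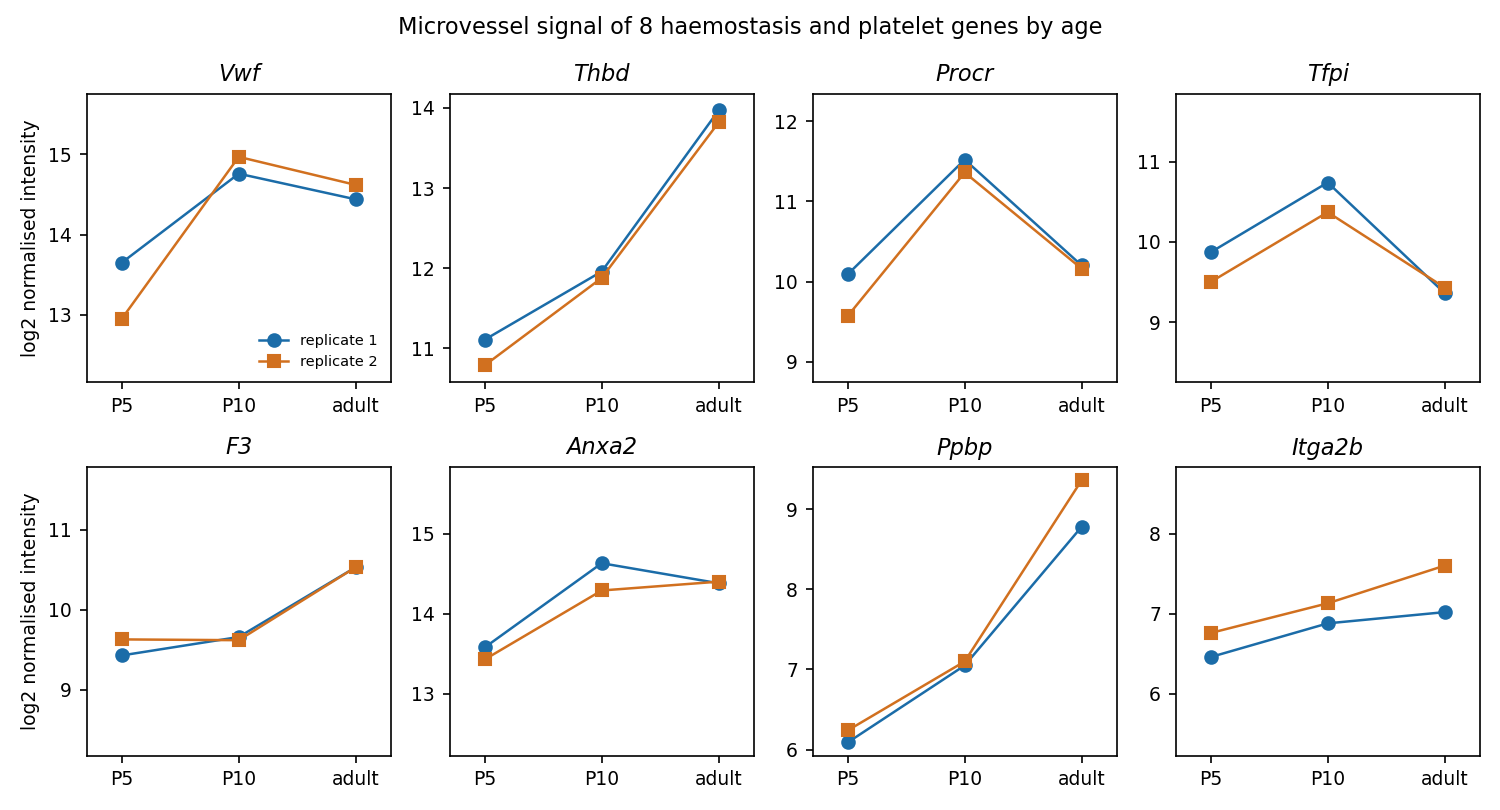
Level of each of the 8 genes (log2 normalised intensity, vertical axis) at P5, P10 and in adult vessels (horizontal axis). Points of 1 replicate are joined, and every panel spans the same number of log2 units; Thbd and Ppbp are highest in adult vessels, and Procr and Tfpi are highest at P10.

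**Figure D2:**
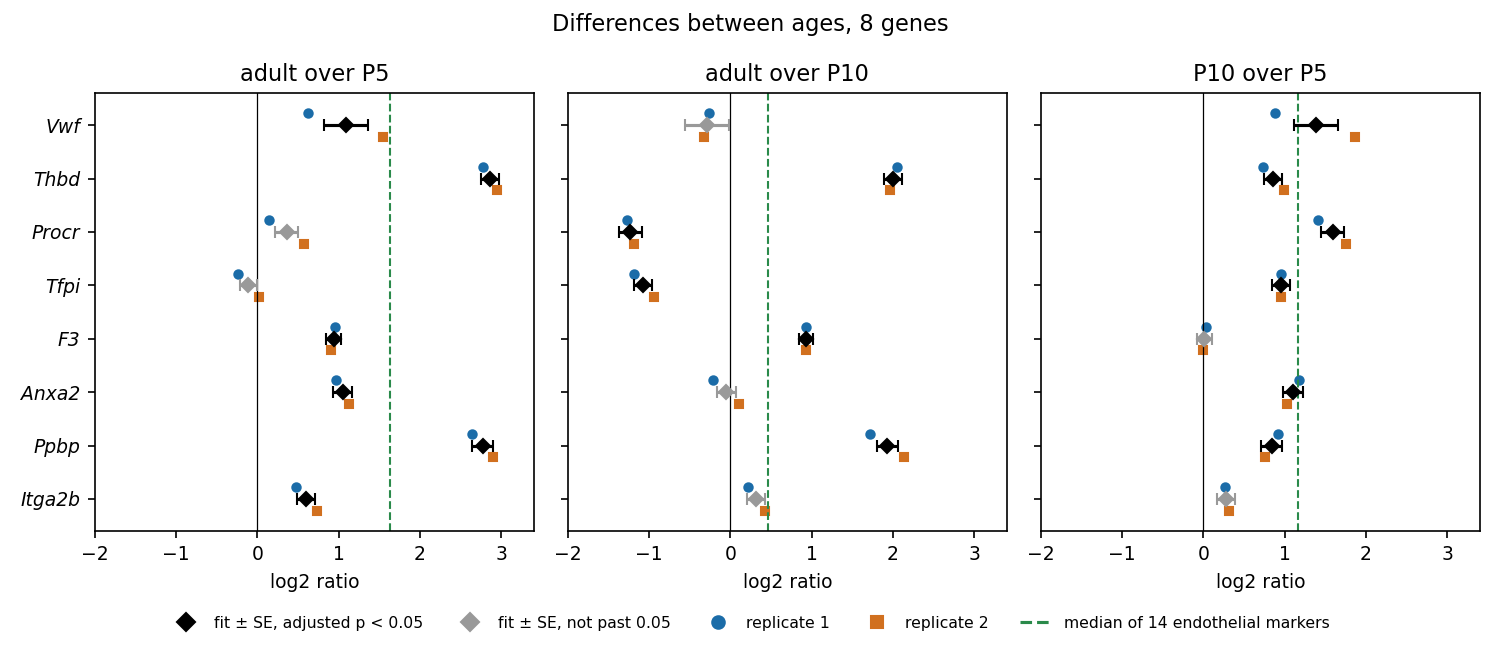
Log2 difference of the 8 genes for adult over P5, adult over P10 and P10 over P5. Diamonds with bars are fitted values with SE, black where the adjusted p passed 0.05; circles and squares are the 2 replicates, and the dashed line is the median of the 14 endothelial markers (1.63 in adult over P5), which Thbd exceeds in that comparison, as does Ppbp, whose P5 signal lay near background.

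Promoter sequences, from 250 bases before to 50 after the annotated start, were found in RefSeq (build GRCm38.p6) for 6 of the 8 genes, with 7 promoters in all. Those of Tfpi and Procr are shown because both genes peaked at P10, Tfpi from 2 annotated starts because its probes differed, and those of Ppbp and Itga2b because they are the platelet genes. Each is written 5′ to 3′ in the direction of transcription. Capitals mark 6-base matches to a GATA motif (AGATAA or TGATAA, either strand), an ETS motif (AGGAAG or CGGAAG, either strand, so CTTCCT or CTTCCG on the other) or a TATA box (TATAAA on the strand shown).
Tfpi promoter, chr2:84476710-84477009, - strand: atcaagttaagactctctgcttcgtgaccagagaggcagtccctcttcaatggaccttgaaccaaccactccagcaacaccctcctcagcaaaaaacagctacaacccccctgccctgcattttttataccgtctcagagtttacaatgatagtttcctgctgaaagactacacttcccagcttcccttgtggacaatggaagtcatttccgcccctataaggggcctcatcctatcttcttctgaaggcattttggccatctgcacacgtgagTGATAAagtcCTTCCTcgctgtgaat
Tfpi promoter, chr2:84474125-84474424, - strand: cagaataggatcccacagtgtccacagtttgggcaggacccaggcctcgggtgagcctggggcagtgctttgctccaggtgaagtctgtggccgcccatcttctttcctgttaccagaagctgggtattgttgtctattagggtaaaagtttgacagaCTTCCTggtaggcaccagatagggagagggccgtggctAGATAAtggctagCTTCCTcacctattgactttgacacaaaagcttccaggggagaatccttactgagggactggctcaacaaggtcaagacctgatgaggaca
Procr promoter, chr2:155750967-155751266, + strand: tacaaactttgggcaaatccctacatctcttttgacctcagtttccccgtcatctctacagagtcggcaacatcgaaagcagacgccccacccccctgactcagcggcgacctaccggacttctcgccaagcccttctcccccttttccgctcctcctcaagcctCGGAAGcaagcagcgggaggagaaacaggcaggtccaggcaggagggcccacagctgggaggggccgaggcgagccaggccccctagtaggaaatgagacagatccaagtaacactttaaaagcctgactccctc
Ppbp promoter, chr5:90768268-90768567, + strand: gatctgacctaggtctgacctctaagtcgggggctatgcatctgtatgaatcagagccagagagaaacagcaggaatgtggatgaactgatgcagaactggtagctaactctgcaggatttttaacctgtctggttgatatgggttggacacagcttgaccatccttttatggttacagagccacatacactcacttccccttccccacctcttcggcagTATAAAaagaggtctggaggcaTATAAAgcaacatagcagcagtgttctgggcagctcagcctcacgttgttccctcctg
Itga2b promoter, chr11:102469834-102470133, - strand: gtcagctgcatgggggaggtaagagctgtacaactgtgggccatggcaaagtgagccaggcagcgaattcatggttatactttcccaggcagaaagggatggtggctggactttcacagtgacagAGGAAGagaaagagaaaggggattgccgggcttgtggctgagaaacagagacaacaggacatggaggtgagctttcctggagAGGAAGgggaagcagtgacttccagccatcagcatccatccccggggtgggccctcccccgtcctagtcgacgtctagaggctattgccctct
A GATA match stood in both Tfpi promoters, 25 bases after the start in the first and 54 before it in the second, and such a match occurs in 18.6% of the 32851 mouse promoters of this length. ETS matches stood in both Tfpi promoters, in Procr and in Itga2b, and occur in 46.5% of all promoters. Ppbp had 2 TATAAA matches, 30 and 8 bases before its start, a match that 8.3% of promoters hold on this strand. No GATA or ETS match lay in the 300 bases of Ppbp shown, and a match or its absence is a description of these letters only.

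Vwf, on chromosome 6, encodes von Willebrand factor, the large multimer that tethers platelets to an injured vessel wall and carries clotting factor VIII. Its level was 13.65 and 12.95 at P5, 14.76 and 14.97 at P10, and 14.44 and 14.62 in adult vessels. Both P5 samples lay below every later sample, and the P10 and adult samples were close to each other, with P10 the higher in both replicates. Vwf was higher in adult than in P5 vessels by 1.09 ± 0.27 (2.12-fold, adjusted p = 0.0239) and higher at P10 than at P5 by 1.38 ± 0.27 (2.60-fold, adjusted p = 0.0186). The replicates differed in the size of this gap: without replicate 2 the differences were 0.62 and 0.88, and without replicate 1 they were 1.55 and 1.87. The gap was visible on single arrays, whose ratios run the other way: P5 over adult stood at -0.61 on slide 1 and -1.74 on slide 2, and P5 over P10 at -0.95 and -1.97. With median centring in place of loess the differences were larger, at 1.77 in adult against P5 and 2.24 in P10 against P5. Adult against P10 gave -0.29 ± 0.27 (adjusted p = 0.542), with a 95% interval of -0.98 to 0.40, which holds values of either sign.

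Of 14 genes tested from a list of Weibel-Palade body cargo, release and related genes, 9 rose and 0 fell in adult against P5 vessels. Their median was 1.01. The list also holds genes such as Gata2 and Clec14a, so its counts and medians are not of cargo and release genes alone. The largest rises were in Edn1, encoding endothelin-1, at 3.27 ± 0.12, Gata2, a transcription factor of endothelial and blood cells, at 2.21 ± 0.17, and Igfbp7, a secreted protein stored with von Willebrand factor, at 1.67 ± 0.11. Between adult and P10 vessels 5 of the 14 rose and 1 fell (median 0.15). Between P10 and P5, 9 rose and 1 fell (median 1.02). All-gene shares called were 53.1% in adult against P5, 17.5% in adult against P10 and 41.2% in P10 against P5. Angpt2, a Weibel-Palade cargo that destabilises vessels and was picked for mention after its value was seen, was higher in adult than in P5 vessels by 1.03 and gave -0.25 between adult and P10 (adjusted p = 0.166). Selp, encoding the leukocyte adhesion receptor P-selectin and likewise picked afterwards, gave 0.15 in adult against P5 vessels (adjusted p = 0.247). Its levels lay near the floor of the array at every age, from 6.36 to 6.63, so a change could have been missed.

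Thbd, on chromosome 2, encodes thrombomodulin, the endothelial receptor that captures thrombin and redirects it to protein C. Its level was 11.11 and 10.79 at P5, 11.96 and 11.88 at P10, and 13.97 and 13.82 in adult vessels. The 3 ages did not overlap and stood in the order P5, P10, adult in both replicates. Thbd was higher in adult than in P5 vessels by 2.86 ± 0.11 (7.28-fold, adjusted p = 0.000525) and higher in adult than in P10 vessels by 2.00 ± 0.11 (4.01-fold, adjusted p = 0.00225). Among all 21939 genes these differences ranked 245 and 204 by size. At P10 against P5 the gene was already higher by 0.86 ± 0.11 (1.81-fold, adjusted p = 0.00836), and median centring gave 1.63 for this step. Single arrays gave the same direction in either dye order, with adult over P10 at 1.99 and 1.78 where adult RNA carried Cy5, and P10 over adult, which runs the other way, at -2.20 and -2.13 where P10 RNA did.

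Procr, also on chromosome 2, encodes the endothelial protein C receptor, which presents protein C to the thrombin and thrombomodulin complex and marks large vessels more than capillaries. Its level was 10.09 and 9.57 at P5, 11.52 and 11.36 at P10, and 10.20 and 10.16 in adult vessels. Both P10 samples lay above all others, and the adult samples lay just above the P5 samples. Procr was lower in adult than in P10 vessels, with a log2 difference of -1.23 ± 0.14 (0.426-fold, adjusted p = 0.00825), and higher at P10 than at P5 by 1.59 ± 0.14 (3.01-fold, adjusted p = 0.00488). Adult against P5 gave 0.36 ± 0.14 (adjusted p = 0.0833), with slide values of 0.14 and 0.57. On the arrays run in both dye orders, adult over P10 stood at -1.19 and -1.16 with adult RNA in Cy5, and P10 over adult at 1.43 and 1.27 with P10 RNA in Cy5. The adult against P5 difference depended on normalisation, since median centring of the arrays gave 0.93 for it with an adjusted p of 0.009, and leaving out the 2 arrays with faulty background spots gave 0.53 with 0.037. Thbd and Procr, partners in activating protein C, thus changed in opposite directions between P10 and adulthood, Thbd by 2.00 and Procr by -1.23, in both replicates. The venous endothelial markers had 0 of 8 rising and 3 falling in adult against P10 vessels (median -0.45), and the 8 arterial markers had 0 rising and 1 falling (median 0.02). Fibroblast and meningeal markers had 0 of 8 rising and 4 falling in adult against P10, led by Col1a1 at -2.40 and Col1a2 at -2.06, and 4 rising and 0 falling in P10 against P5. Their summed intensity was 44504 and 32684 at P5, 65702 and 56780 at P10, and 30863 and 30439 in adult vessels. It was highest at P10, as Procr and Tfpi were, but follows its brightest genes, such as Col1a2. Choroid plexus markers had 1 of 6 rising and 3 falling in adult against P10, with Aqp1 at -1.99 and Otx2 at -1.76, and a median of -0.31 in P10 against P5. The part of these lists in the results for Procr, Tfpi and F2r was not tested.

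Other anticoagulant and antiplatelet genes of the vessel wall that passed the test were mostly higher at P10 and in adult vessels than at P5. Among all genes, 23% were called upward in adult against P5, 18.2% in P10 against P5 and 9.1% in adult against P10. The downward shares were 30.1%, 23% and 8.42%. Of 12 tested out of 15 listed, 7 rose and 1 fell in adult against P5 (median 0.94), 9 rose and 0 fell in P10 against P5 (median 0.88), and 3 rose and 2 fell in adult against P10 (median -0.12). The largest rises in adult against P5 vessels were in Entpd1, the ectonucleotidase CD39 that removes platelet-activating ADP, at 1.72 ± 0.10, Anxa5, which covers exposed phosphatidylserine, at 1.64 ± 0.10, and Cd59a, a complement inhibitor, at 1.62 ± 0.13. Between adult and P10 vessels Entpd1 gave -0.31 (adjusted p = 0.116) and Anxa5 0.41 (adjusted p = 0.0579), whereas Cd59a rose by 0.98 (adjusted p = 0.0121).

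Tfpi, on chromosome 2, encodes tissue factor pathway inhibitor, and was read by 3 probes. Counted over probes, 8 of the 11 probes of the 8 genes rose in adult against P5 vessels and 8 in P10 against P5, and 3 rose and 3 fell in adult against P10, where 52.1%, 40.1% and 17.2% of all 27107 probes fitted were called in either direction. The brightest, A_66_P132295, designed on the transcript NM_011576, gave 9.87 and 9.50 at P5, 10.74 and 10.37 at P10, and 9.36 and 9.43 in adult vessels, with 1 outlier spot left out, so its value rests on 7 of 8 arrays. Both P10 samples exceeded the rest in level, and both adult samples lay below both P5 samples. Levels hold no dye term, and in the fit with a dye term adult against P5 gave -0.24 and 0.02 in the 2 replicates. The array without a value was adult over P10 on slide 1, so slide 1 held no dye exchange for this probe. Its dye term there rests on the remaining arrays alone. By this probe Tfpi was lower in adult than in P10 vessels, with a log2 difference of -1.07 ± 0.11 (0.478-fold, adjusted p = 0.00731) and higher at P10 than at P5 by 0.95 ± 0.11 (1.94-fold, adjusted p = 0.00741). Adult against P5 gave -0.11 ± 0.11 (adjusted p = 0.44), with a 95% interval of -0.40 to 0.18, and the sign turned to 0.21 under median centring and to 0.29 as a mean over the 3 probes, which also gave -0.68 in adult against P10 (adjusted p = 0.032).

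The probes of Tfpi disagreed about adult vessels. The other NM_011576 probe, A_55_P2095360, gave 8.64 and 8.33 at P5, 9.74 and 9.31 at P10, and 8.63 and 8.58 in adult vessels, with differences of 0.08 for adult against P5, -0.87 for adult against P10 and 0.96 for P10 against P5. The third probe, A_52_P670263, designed on the transcript NM_001177319, gave 8.68 and 8.42 at P5, 9.69 and 9.36 at P10, and 9.31 and 9.49 in adult vessels. Its adult samples stayed near those of P10, in contrast to the first pair of probes. By this probe adult vessels exceeded P5 by 0.91 ± 0.16 (adjusted p = 0.00844 over all probes), adult against P10 gave -0.11 (adjusted p = 0.704) and P10 exceeded P5 by 1.02 (adjusted p = 0.0113).

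Set against the mean of the other Tfpi probes within each sample, the NM_001177319 probe was 0.92 ± 0.10 higher in adult against P5 (0.86 and 0.99 in the replicates, limma adjusted p = 0.00736) and 0.86 ± 0.10 higher in adult against P10 (0.76 and 0.96, adjusted p = 0.0328). In P10 against P5 it gave 0.06 (adjusted p = 0.673). This test was added after the disagreement had been seen and ran over 9118 probes of 4141 genes with several probes, of which 31% were called in adult against P5, 2.26% in adult against P10 and 22.9% in P10 against P5. The brightest probe differed from the others by -0.61 in adult against P5 (adjusted p = 0.0184) and by -0.57 in adult against P10 (adjusted p = 0.0772). What each probe reads within the Tfpi transcripts was not analysed here.

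**Figure D3:**
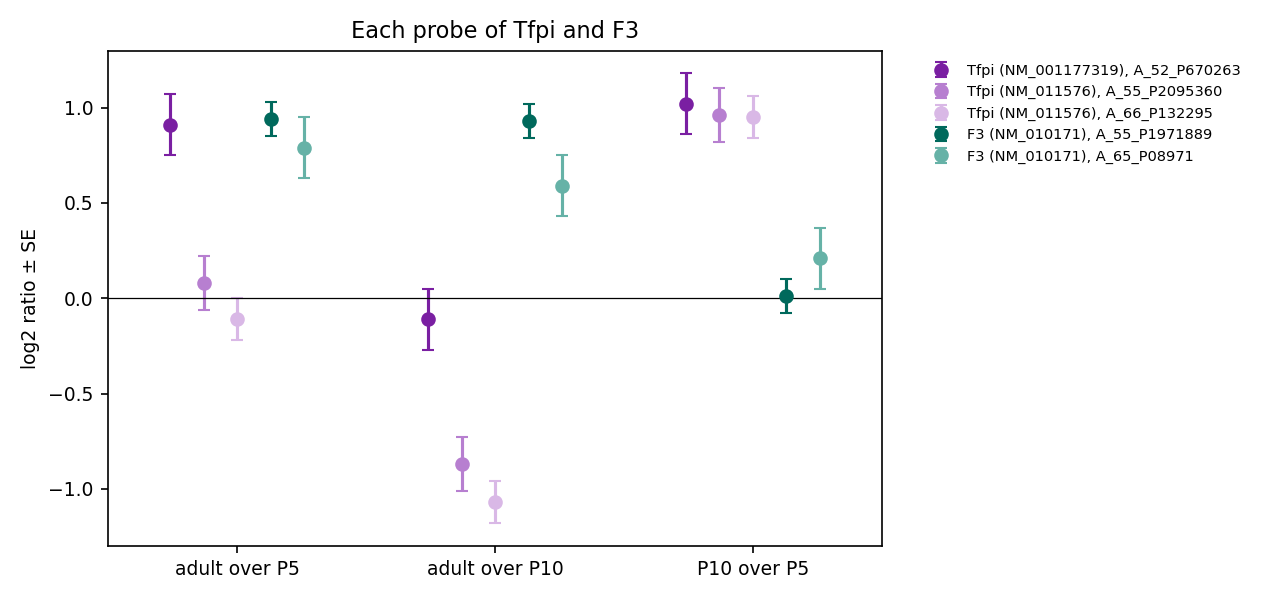
Log2 difference with SE (vertical axis) for each probe of Tfpi (purple) and F3 (green) in adult over P5, adult over P10 and P10 over P5. The NM_001177319 probe of Tfpi lies at 0.91 in adult over P5 while the other Tfpi probes lie at 0.08 and -0.11, and the 3 nearly meet in P10 over P5.

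F3, on chromosome 3, encodes tissue factor, the membrane cofactor that starts coagulation and the target of Tfpi. Its brighter probe gave 9.43 and 9.63 at P5, 9.66 and 9.62 at P10, and 10.53 and 10.53 in adult vessels. The P5 and P10 samples overlapped, and both adult samples lay above them all. F3 was higher in adult than in P5 vessels by 0.94 ± 0.09 (1.92-fold, adjusted p = 0.00223) and higher in adult than in P10 vessels by 0.93 ± 0.09 (1.90-fold, adjusted p = 0.00663), while P10 against P5 gave 0.01 ± 0.09 (adjusted p = 0.932), with a 95% interval of -0.23 to 0.25. Median centring gave 1.44 in adult against P5, 0.93 in adult against P10 with an adjusted p of 0.0527, and 0.51 in P10 against P5 (adjusted p = 0.0925). The estimate from P5 to P10 thus moved with the normalisation, and it was called under neither setting.

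The second probe of F3 was dim, with 6.54 and 6.64 at P5, 7.10 and 6.77 at P10, and 7.48 and 7.51 in adult vessels. It gave 0.79 in adult against P5 (adjusted p = 0.0122), 0.59 in adult against P10 (adjusted p = 0.0639) and 0.21 in P10 against P5 (adjusted p = 0.332). The probes of F3 differed from each other by 0.14, 0.34 and -0.19 in these comparisons, brighter minus dimmer, with adjusted p of 0.5, 0.353 and 0.383. Astrocyte markers, given here because astrocytes make tissue factor, had 3 of 8 rising and 2 falling in adult against P5 vessels (median 0.43) and 2 rising and 1 falling in adult against P10 (median 0.10). Their summed intensity was 33470 and 50188 at P5, 27636 and 45547 at P10, and 63171 and 71629 in adult vessels. That sum follows its brightest genes, such as Aldoc. S100b and Aldh1l1 led the astrocyte markers in opposite directions, at 2.02 and -1.44 in adult against P5. Their part in the F3 result was not tested.

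Downstream clotting factors and the proteins that make them showed no single direction. Their counts stand beside all-gene shares of 53.1% in adult against P5, 17.5% in adult against P10 and 41.2% in P10 against P5. Of 11 tested out of 19 listed, 6 rose and 3 fell in adult against P5 vessels (median 0.37), 1 rose and 1 fell in adult against P10 (median 0.11), and 6 rose and 2 fell in P10 against P5 (median 0.38). F5, the cofactor of factor Xa, rose by 1.63 ± 0.13 in adult against P5, and Mcfd2, which helps carry factors V and VIII out of the endoplasmic reticulum, rose by 1.06 ± 0.11. F10, encoding factor X, gave -1.96 ± 0.46 by its brighter probe and -0.17 by the other, so its direction was not settled. Of the 4 protease-activated receptors, F2r, the main thrombin receptor of endothelium, was the one tested. It fell in adult against P5 (log2 difference -0.78 ± 0.18, adjusted p = 0.0192) and in adult against P10 (-1.56 ± 0.18, adjusted p = 0.00846), and rose by 0.79 in P10 against P5 (adjusted p = 0.0251). F2r thus had its highest value at P10, as Procr and Tfpi did.

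Anxa2, on chromosome 9, encodes annexin A2, a cell surface protein that assembles plasminogen with its activator and so promotes fibrinolysis. Its level was 13.58 and 13.43 at P5, 14.63 and 14.29 at P10, and 14.38 and 14.40 in adult vessels. Both P5 samples lay below all later samples, and the P10 samples fell on either side of the adult samples. Anxa2 was higher in adult than in P5 vessels by 1.05 ± 0.12 (2.07-fold, adjusted p = 0.00285) and higher at P10 than at P5 by 1.1 ± 0.12 (2.14-fold, adjusted p = 0.00624), differences that median centring put at 1.71 and 1.94. Adult against P10 gave -0.05 ± 0.12 (adjusted p = 0.823), with a 95% interval of -0.35 to 0.25, and leaving out the 2 arrays with faulty background spots turned it to 0.04.

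Few of the other fibrinolysis genes passed the test in adult against P5 vessels, where 53.1% of all genes tested did. All-gene shares were 17.5% in adult against P10 and 41.2% in P10 against P5, and the list was not tested against these shares. Of 6 tested out of 10 listed, 1 rose and 0 fell in adult against P5 vessels (median 0.03), 0 rose and 1 fell in adult against P10 (median -0.13), and 2 rose and 0 fell in P10 against P5 (median 0.29). Plau, encoding urokinase, rose by 0.52 ± 0.11 in adult against P5 (adjusted p = 0.0144). Its P5 levels, 6.23 and 6.34, lay near the floor of the array, with 2 of 4 P5 channels well above background. The adult levels were 6.85 and 6.85, so the size of this rise is not a measured fold. S100a10, which forms a complex with annexin A2 and is named here as its partner with the value known, gave -0.10 in adult against P5 (adjusted p = 0.499) and 0.06 in P10 against P5 (adjusted p = 0.718). The difference between Anxa2 and S100a10 itself was not tested.

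Ppbp, on chromosome 5, encodes platelet basic protein, a chemokine precursor (CXCL7) of platelet granules. Its level was 6.09 and 6.24 at P5, 7.05 and 7.10 at P10, and 8.78 and 9.36 in adult vessels. The 3 ages did not overlap and stood in the order P5, P10, adult in both replicates. The P5 values lay near the floor of the array, with 1 of 4 P5 channels well above background, whereas all 6 channels at P10 and all 6 in adult vessels were. Ppbp was higher in adult than in P10 vessels by 1.93 ± 0.13 (3.81-fold, adjusted p = 0.00299), a difference that ranked 231 by size among all genes. Against P5 the fitted differences were 2.77 ± 0.13 for adult vessels (adjusted p = 0.000569) and 0.84 ± 0.13 for P10 (adjusted p = 0.0127), but their size rests on P5 signals near background and is not a measured fold. With the processed signals these 2 differences were 5.30 and 2.70. Adult against P10 was 2.60 with those signals, so its size also depended on the processing, with P10 itself dim. With the faulty spots kept in the background fit P10 against P5 was 0.29 (adjusted p = 0.556) and adult against P10 was 1.71 (adjusted p = 0.0887). The arrays run in both dye orders gave the same direction, with adult over P10 at 1.75 and 2.06 where adult RNA carried Cy5, and P10 over adult at -1.76 and -2.37 where P10 RNA did.

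Itga2b, on chromosome 11, encodes integrin alpha-IIb, the platelet fibrinogen receptor subunit that pairs with integrin beta-3. Its level was 6.46 and 6.76 at P5, 6.88 and 7.13 at P10, and 7.02 and 7.60 in adult vessels. Within each replicate the order was P5, P10, adult, while across replicates the P10 and adult samples overlapped. Itga2b was higher in adult than in P5 vessels by 0.60 ± 0.11 (1.52-fold, adjusted p = 0.0107). Its probe was well above background in every channel but dim at every age, and the size of this difference depended on the processing. Adult against P10 gave 0.32 ± 0.11 (adjusted p = 0.123) and P10 against P5 gave 0.28 ± 0.11 (adjusted p = 0.099), with 95% intervals of 0.03 to 0.61 and 0.00 to 0.57. The adult against P5 call did not hold under 4 alternatives, with 0.47 under median centring (adjusted p = 0.0864), 0.42 without the 2 arrays with faulty background spots (adjusted p = 0.153), 0.69 without the replicate block (adjusted p = 0.0663) and 0.46 with those spots kept in the background fit (adjusted p = 0.0762). With the processed signals it was 1.38 (adjusted p = 0.00454). P10 against P5 passed the threshold under 3 alternatives, at 0.36 without background correction (adjusted p = 0.049), 0.74 with processed signals (adjusted p = 0.0263) and 0.32 with ratios averaged over dye exchanges (adjusted p = 0.0215), and adult against P10 passed under the last of these at 0.31 (adjusted p = 0.0426).

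Other platelet and megakaryocyte genes had no common direction. Among all genes tested, 53.1% were called in adult against P5, 17.5% in adult against P10 and 41.2% in P10 against P5. Of 19 tested out of 24 listed, 4 rose and 5 fell in adult against P5 vessels (median 0.05), 4 rose and 3 fell in adult against P10 (median -0.24), and 4 rose and 1 fell in P10 against P5 (median 0.13). The platelet glycoprotein genes Gp1ba, Gp5, Gp6 and Gp9 were not well above background in all channels of any age and were not tested, and no probe was matched to Bin2. Gp1bb, of the same group and named with its value known, was tested. It gave -0.85 in adult against P5 (limma adjusted p = 0.00594), with its 3 probes from -0.85 to -0.33, and -0.65 in adult against P10 (adjusted p = 0.0304). Alox12, platelet 12-lipoxygenase, rose by 2.03 ± 0.10 in adult against P5 by its brighter probe and by 0.97 by the other. Mmrn1, encoding multimerin-1 of platelets and endothelium, fell, with a log2 difference of -2.70 ± 0.33. Pf4, platelet factor 4, a chemokine of the same granules as Ppbp and named here for that reason with its value known, stood at 11.69 and 11.39 at P5, 12.32 and 11.97 at P10, and 11.70 and 11.64 in adult vessels. Its samples overlapped between P5 and adulthood, and it gave 0.15 in adult against P5 (adjusted p = 0.352) and -0.46 in adult against P10 (adjusted p = 0.0754). Itgb3, the beta-3 partner of Itga2b and named for that reason with its value known, gave -0.15 in adult against P5 (adjusted p = 0.336). The summed intensity of the 19 genes was 9812 and 9793 at P5, 13038 and 11533 at P10, and 11134 and 11125 in adult vessels. That total follows its brightest genes, such as Pf4 and Rasgrp2. Of the granulocyte markers, another blood lineage, 1 of 9 tested fell and 0 rose in adult against P5.

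**Figure D4:**
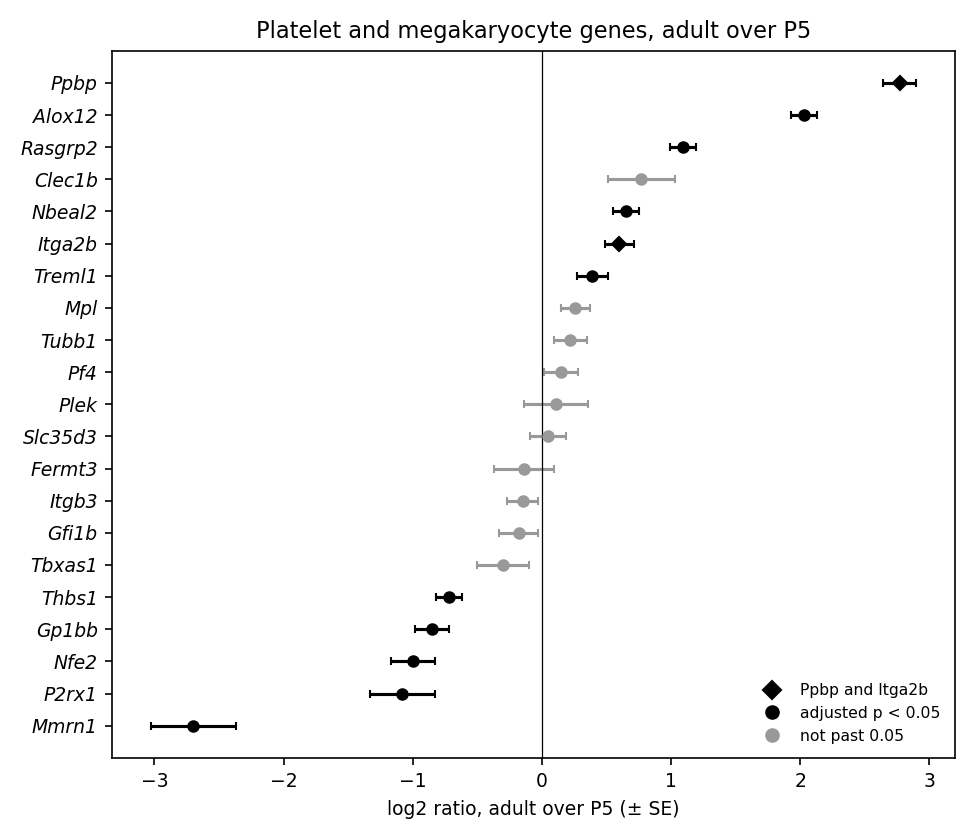
Log2 difference with SE of adult over P5 (horizontal axis) for Ppbp and Itga2b (diamonds) and the 19 platelet and megakaryocyte genes tested (circles), sorted by size. Black symbols passed an adjusted p of 0.05; Ppbp lies at 2.77, set against P5 signal near background, and Mmrn1 at -2.70, with Pf4 at 0.15 between them.

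Genes whose profile over the 6 values (3 ages in 2 replicates, centred within replicate) lay nearest to each member were found by Euclidean distance in log2 units, as a description only. Thbd was nearest to Magix (0.089) and Plscr2 (0.16), and Ppbp to B2m (0.283) and to Thbd itself (0.285). For Procr the nearest were Clec14a (0.286) and Lurap1l (0.345), and for Tfpi Ecscr (0.172) and Dab2 (0.175), so all 4 of these neighbours had their highest value at P10. Anxa2 had Msn (0.083) and Slc22a18 (0.114) nearest, and Vwf had Il34 (0.238) and Vcl (0.291). The profile of F3 was closest to Hdac9 (0.07) and Klk6 (0.077), and that of Itga2b to Cacul1 (0.03) and Dpm3 (0.034).

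Set side by side, the haemostasis lists and the endothelial lists changed in different proportions. The median difference in adult against P5 was 0.99 for the 8 genes, 0.94 for the anticoagulant list, 1.01 for the Weibel-Palade list, 0.37 for clotting factors and 0.03 for fibrinolysis, against 1.63 for pan-endothelial, 1.97 for arterial and 0.24 for venous markers. In adult against P10 these medians lay between -0.45 and 0.46, and in P10 against P5 the arterial markers stood highest at 1.95. Of the 8 genes, Thbd exceeded the pan-endothelial median in both comparisons with adult vessels, as did Ppbp with the limit on its P5 values, and F3 exceeded it in adult against P10. In P10 against P5, Procr exceeded the corresponding median of 1.16, and did so in both replicates. Vwf exceeded it in the fit and in replicate 2 (1.87 against 1.22) but not in replicate 1 (0.88 against 1.13). These differences between lists were not tested.

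**Figure D5:**
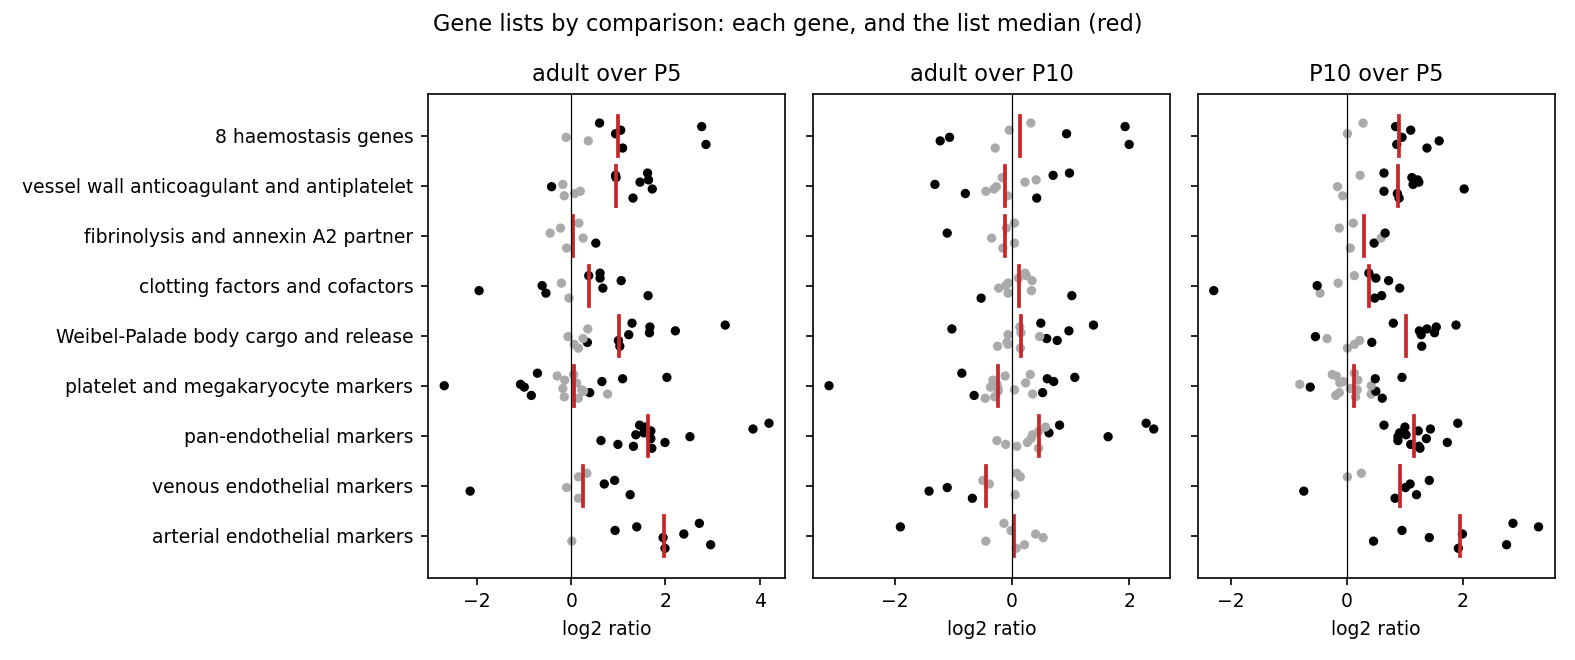
Log2 difference of each gene of 9 lists (points, black where the adjusted p passed 0.05) for adult over P5, adult over P10 and P10 over P5, with each list's median as a red line. In adult over P5 the 8 haemostasis genes have a median of 0.99 and the 14 pan-endothelial markers one of 1.63.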

How the data were processed

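RNA of forebrain microvessels was labelled from 100 ng with Cy5 or Cy3, per the labels. Each deposited file is the Agilent Feature Extraction output of 1 array, with version 10.5.1.1 per the file headers and 12.6 per the submitters' processing notes. Per the file headers, median spot signals, their local background and processed signals hold linear intensity, the deposited LogRatio is a log10 ratio of processed red over green, and further columns hold flags. The log10 ratio met that definition within 0.01 for 86% to 95.4% of non-control spots per array. Ages and dyes were taken from the labels. Of 43020 non-control spots, 65.2% to 73.3% per channel and array were well above background.

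In R 4.3.3 with limma 3.58.1, median signals were corrected by normexp (offset 50). Spots whose signal in a channel lay over 100 under the local background (11 in all, on 2 arrays) took the array's median background in that fit and were then left out, as were outlier spots. Arrays were normalized by loess (span 0.3), and spots of 1 probe were averaged. Probes were kept if all channels of 1 or more ages were well above background (27188 of 39429, of which 27107 could be fitted), and a gene was its brightest kept probe. Names came from RefSeq accessions (GRCm38.p6; 27421 probes matched), and the probe design names build mm9. Per slide, 2 age differences and a dye term were fitted, and limma then fitted age and replicate (2 residual and 2.91 prior degrees of freedom). Ratios exist only within an array, so the replicate block is part of the fit; slide equals replicate and holds every age, so the values per replicate are also those within a batch. Levels are separate-channel log2 intensities (loess, then Aquantile), with no dye term. The procedure was tested on simulated data. Alternatives changed the background correction, normalization, signal, filter, probe choice, dye term, arrays, unit of the fit and block.

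The 8 genes, the gene lists and the tests were chosen with earlier results of these data known. Named genes are the 8, up to 3 called genes of largest adult against P5 difference per haemostasis list and up to 2 per marker list, and the 2 nearest profiles per member. Other genes named are said to be so where they appear.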

Additional observations from a re-analysis of the deposited data

How the results depend on the processing

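The 24 member differences were recomputed under 10 alternatives, giving 240 values, of which 213 kept direction and side of the threshold, 16 kept direction but lost the call, 6 gained one and 5 reversed. All 5 reversals were of differences that were not called: Anxa2 in adult against P10 (0.04) and F3 in P10 against P5 (-0.04) without the 2 arrays with faulty background spots, F3 in P10 against P5 (-0.08) with normexp fitted on all spots, and Tfpi in adult against P5 under median centring (0.21) and as a mean over its probes (0.29). With normexp fitted on all spots, faulty ones included, 5378 genes were called in adult against P5, 257 in adult against P10 and 0 in P10 against P5, where limma's unadjusted p was below 0.05 for 7066; 1 of the 8 genes was called in adult against P10 and 0 in P10 against P5, and 5, 1 and 0 of their 11 probes in the 3 comparisons. The cause of the wider spread under that fit was not tested here. Without the 2 arrays with faulty spots, 1885 genes were called in adult against P10 and 5610 in P10 against P5, from fewer arrays. With ratios averaged over dye exchanges in place of per-slide values the counts were 7630 and 13751. Median centring called 1279 genes in adult against P10, and it moved the share of upward calls to 53.4% (43.4% with loess) in adult against P5 and to 60.1% (44.2%) in P10 against P5, and the median of all genes to 0.07 (-0.09) and 0.12 (-0.06). The fit with no replicate block called 1815 genes in adult against P10, 5307 in P10 against P5 and 8455 in adult against P5, and 5, 6 and 5 of the 8 genes; among them it changed the call of Itga2b in adult against P5 alone (0.69, adjusted p = 0.0663). Leaving out 1 replicate leaves no residual degrees of freedom, so it gives member values (the replicate values in the text, from -1.27 to 2.95) but no counts. The mean over probes has no value for single probes. With 2 replicates per age and arrays as the measure, the number of samples limits the precision, and Ppbp at P5 is limited by signal near background. The same limit holds for Plau at P5, and Itga2b was dim at every age. The test of probes against each other was added after seeing the data.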
